A study of Mus musculus with 4 samples.

Results

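Transcripts of the IL-6 family were examined in dorsal skin treated with imiquimod (IMQ). The genes were chosen by symbol: the ligands Il6, Il11, Osm, Lif and Clcf1 and the receptors Il6ra, Il6st, Osmr and Lifr. All 9 were found among the 24346 gene symbols measured. Male C57BL/6 mice, 8 weeks old at the start, were fed a diet high in fat, cholesterol and sucrose with bile salt (the NASH diet, which produces steatohepatitis) for 3 weeks, and IMQ cream was applied for 1 day. The Cont-IMQ group received the NASH diet alone, and the 7KC-IMQ group received the same diet with 7-ketocholesterol (7KC), an oxidized cholesterol. RNA sequencing gave 4 libraries, 2 in each group (replicates 1 and 2). The comparison asks whether dietary 7KC altered these transcripts in skin that received IMQ in both groups, and skin without IMQ is not part of it.

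Most IL-6 family cytokines share gp130, the signaling receptor chain encoded by Il6st, while IL-31 uses IL31RA with OSMR. Each ligand that uses gp130 first binds a chain of its own or pairs gp130 with another signaling chain. Janus kinases attached to these chains then phosphorylate STAT3. In skin, keratinocytes, fibroblasts and immune cells make and respond to these cytokines, which are known for roles in wound repair, epidermal thickening and the acute phase response.

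Levels are given as FPKM, a fragment density scaled to the length of the gene's exons and to the library, so that genes of different length can be set side by side. Depth, estimated from the steps between low values, lay between 14980000 and 16320000 reads. Groups were compared by limma on log2(FPKM + 1) over the 15896 genes that averaged 0.1 FPKM or more. A difference on this scale understates the fold change of genes with low FPKM. A result was called at a Benjamini-Hochberg adjusted p under 0.05, which 1 gene reached (0.00629% of the genes tested). An unadjusted p under 0.05 was found in the direction of higher values in 7KC-IMQ for 7.5% of genes and lower values for 5.47%. The groups did not overlap, with 7KC-IMQ higher, for 23.9% of genes, and with 7KC-IMQ lower for 22.9%. With 2 libraries in each group, a two-sided exact permutation test of a single gene cannot give a p below 0.333. Nothing says that the libraries came from separate animals, so p-values measure only the spread between these libraries. Both Cont-IMQ libraries stood apart in hair follicle transcripts, in opposite directions: 6 markers summed to 1224 FPKM in Cont-IMQ replicate 2, against 87.7 in Cont-IMQ replicate 1 and 341 and 301 in the 7KC-IMQ libraries. Values without either library are given for some genes only.

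None of the 9 genes passed the adjusted threshold. For all 5 ligands the lower 7KC-IMQ library exceeded the higher Cont-IMQ library, and 4 of them had an unadjusted p under 0.05. Of the 4 receptors, Osmr was higher and Il6ra and Lifr were lower without overlap, and Il6st overlapped between the groups. Of the 9 genes, 6 were therefore higher and 2 lower without overlap, with 5 higher and 1 lower at an unadjusted p under 0.05. Over all genes tested, 23.9% were higher and 22.9% lower without overlap, with 7.5% and 5.47% at this p. The median difference was 0.67 (log2) over the ligands, -0.10 over the receptors and -0.01 over all genes tested. Il6, Il11 and Osm are among the genes the study displayed from these same libraries, so their direction is not independent evidence. All 9 genes were also chosen with earlier results of these data known. The skin was measured as a whole, and fewer cells of a type cannot be told apart from less RNA per cell.

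**Figure D1:**
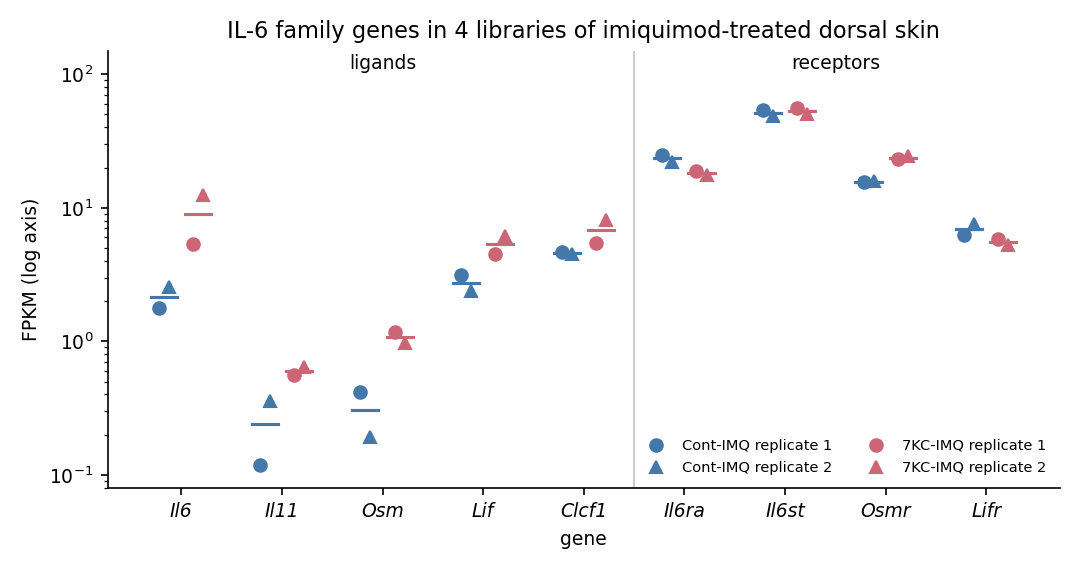
FPKM of each of the 9 genes on a log axis, with a circle or triangle for each library and a short line for the group mean. The 7KC-IMQ points of the 5 ligands and of Osmr lie above both Cont-IMQ points, those of Il6ra and Lifr lie below, and those of Il6st overlap.

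**Figure D2:**
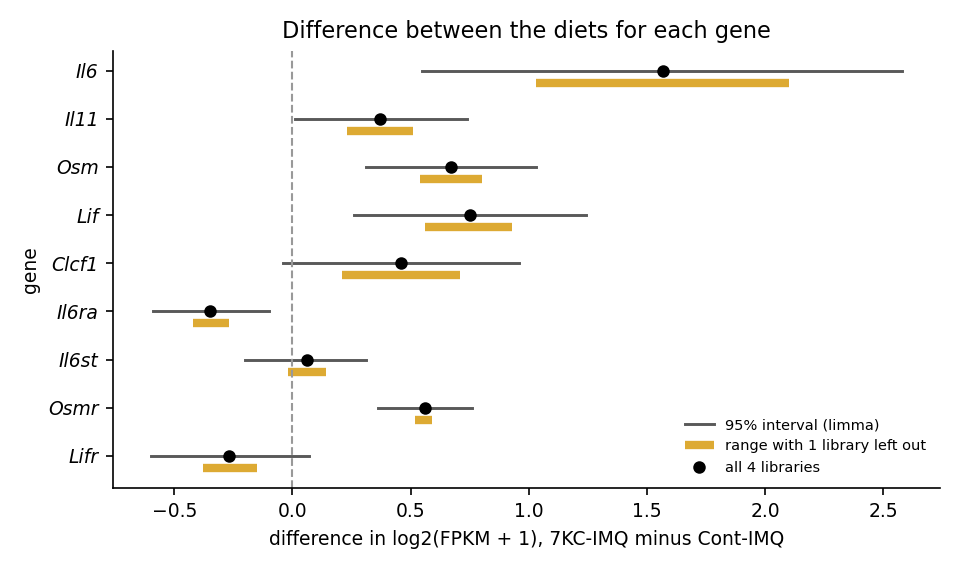
Difference between 7KC-IMQ and Cont-IMQ for each of the 9 genes on the log2(FPKM + 1) scale, with its 95% interval from limma and, below it, the range with 1 library left out (thick bars). Il6 has the largest difference, 1.57, and the widest interval, 0.55 to 2.58, while the intervals of Clcf1, Il6st and Lifr span 0.

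Promoter sequence is shown for Il6, Il11 and Lif, ligands with higher values in 7KC-IMQ, and for Osmr, the receptor with higher values. Each window is the 250 bases before a transcription start in RefSeq (GRCm38.p6), printed 5′ to 3′ on the strand of the gene. RefSeq windows were matched for 7 of the 9 genes (9 windows in all), and Osm and Clcf1 were not matched. The letters of 4 motifs were searched on both strands, and matches are in capitals. These were TGANTCA (AP-1), GGANTTTCC (NF-kB), TTCNNNGAA (STAT) and TTNNGNAA (C/EBP).
Il6, chr5:30012864-30013113, plus strand: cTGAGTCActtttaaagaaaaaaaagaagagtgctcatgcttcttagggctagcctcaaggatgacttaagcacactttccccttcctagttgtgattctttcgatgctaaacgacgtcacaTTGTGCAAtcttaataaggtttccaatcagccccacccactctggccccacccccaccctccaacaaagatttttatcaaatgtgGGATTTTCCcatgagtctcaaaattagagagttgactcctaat
Il11, chr7:4778142-4778391, minus strand: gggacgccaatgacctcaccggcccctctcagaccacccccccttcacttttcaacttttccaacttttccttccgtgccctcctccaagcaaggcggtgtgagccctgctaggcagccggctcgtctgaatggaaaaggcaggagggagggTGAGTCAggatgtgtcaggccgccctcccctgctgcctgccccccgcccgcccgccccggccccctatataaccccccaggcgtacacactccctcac
Lif, chr11:4257318-4257567, plus strand: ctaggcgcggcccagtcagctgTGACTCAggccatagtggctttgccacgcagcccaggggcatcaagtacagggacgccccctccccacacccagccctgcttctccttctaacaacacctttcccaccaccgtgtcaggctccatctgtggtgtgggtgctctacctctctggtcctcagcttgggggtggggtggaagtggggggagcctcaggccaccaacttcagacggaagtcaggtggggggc
Osmr, chr15:6874314-6874563, minus strand: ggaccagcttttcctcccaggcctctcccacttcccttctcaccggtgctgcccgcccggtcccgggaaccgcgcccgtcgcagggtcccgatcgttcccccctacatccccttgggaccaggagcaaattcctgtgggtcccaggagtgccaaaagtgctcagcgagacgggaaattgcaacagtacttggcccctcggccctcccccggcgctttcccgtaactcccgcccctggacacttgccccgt

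The Il6 window held TGAGTCA for AP-1 at 249 to 243 bases before the start, TTGTGCAA for C/EBP at 128 to 121 bases and GGATTTTCC for NF-kB at 43 to 35 bases. In the Il11 window shown, TGAGTCA lay 98 to 92 bases before the start. The Lif window held TGACTCA 228 to 222 bases before the start. Letters of AP-1 thus occurred in a window of all 3 ligands that had one. Among all 32851 promoter windows of this length, 6.75% held the AP-1 letters, 1.07% those of NF-kB, 7.02% those of STAT and 36.8% those of C/EBP. The windows of Osmr, Il6st and Lifr and the other Il11 window held none of the 4, and that of Il6ra held only C/EBP letters. No window of these genes held the STAT letters, and no match overlapped that of another motif. The starts that RefSeq gives for Osmr, Lif, Lifr and Il11 all lie within the genes as annotated by GENCODE M21. The Il11 window shown, which held the AP-1 letters, lies wholly inside Il11 (chr7:4772373-4782859). The other Il11 window, chr7:4782858-4783107, lies at the annotated 5′ end of the gene. These matches describe the sequence and were not tested for binding.

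Il6 encodes interleukin-6, the founding cytokine of the family (chr5:30013114-30019981, plus strand, GRCm38, which is mm10). Its FPKM was 1.78 and 2.54 in Cont-IMQ and 5.40 and 12.5 in 7KC-IMQ. Both 7KC-IMQ libraries were above both Cont-IMQ libraries, and the 7KC-IMQ libraries differed more from each other than the Cont-IMQ libraries did. The means were 2.16 ± 0.542 and 8.93 ± 5.0 FPKM (SD, n = 2 each), a ratio of 4.14. On the log2(FPKM + 1) scale the difference was 1.57 ± 0.38 (SE), with a limma p of 0.0114 and an adjusted p of 0.356. It was the 37th largest of all 15896 genes in the direction of higher values. Without 7KC-IMQ replicate 2 the difference was 1.03.

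The neighbouring genes Osm and Lif lie on chromosome 11 in the same orientation, 16530 bases apart (Osm at chr11:4236420-4241026 and Lif at chr11:4257557-4272514, plus strand). Osm encodes oncostatin M, which is made mainly by immune cells. Its FPKM was 0.420 and 0.193 in Cont-IMQ and 1.18 and 0.968 in 7KC-IMQ, or an estimated 13, 6, 40 and 30 reads. Both 7KC-IMQ values lay above both Cont-IMQ values at this low level, with a ratio of means of 3.50. The difference was 0.67 ± 0.14 (SE) on the log2(FPKM + 1) scale, with a limma p of 0.00579 and an adjusted p of 0.352, and a pseudocount of 0.1 in place of 1 gave 1.58.

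Lif encodes leukemia inhibitory factor, which signals through a pair of LIFR and gp130. Its FPKM was 3.14 and 2.37 in Cont-IMQ and 4.51 and 6.14 in 7KC-IMQ. The groups did not overlap, and the means were 2.75 ± 0.542 and 5.33 ± 1.15 FPKM (SD, n = 2 each). The difference was 0.75 ± 0.19 (SE) on the log2(FPKM + 1) scale, with a limma p of 0.0118 and an adjusted p of 0.356. It was 0.90 without Cont-IMQ replicate 1 and 0.60 without Cont-IMQ replicate 2.

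Il11 encodes interleukin-11, a cytokine made largely by stromal and epithelial cells (chr7:4772373-4782859, minus strand). Its FPKM was 0.119 and 0.360 in Cont-IMQ and 0.556 and 0.643 in 7KC-IMQ. In estimated reads this was 3, 10, 16 and 17, so that Cont-IMQ replicate 1 stood at the floor of 3 reads. The groups did not overlap, but the gap between Cont-IMQ replicate 2 and 7KC-IMQ replicate 1 was smaller than that between the 2 Cont-IMQ libraries. The difference was 0.37 ± 0.14 (SE) on the log2(FPKM + 1) scale, with a limma p of 0.0455 and an adjusted p of 0.376. It was 0.23 without Cont-IMQ replicate 1. With a pseudocount of 0.1 it was 1.14, with a limma p of 0.0608.

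Clcf1 encodes cardiotrophin-like cytokine factor 1, which acts through the receptor of ciliary neurotrophic factor (chr19:4214238-4223490, plus strand). Its FPKM was 4.64 and 4.53 in Cont-IMQ and 5.47 and 8.15 in 7KC-IMQ. The Cont-IMQ libraries were nearly equal, and 7KC-IMQ replicate 2 was well above the other 3 libraries. The difference was 0.46 ± 0.19 (SE) on the log2(FPKM + 1) scale, with a limma p of 0.0634 and an adjusted p of 0.410. It was 0.21 without 7KC-IMQ replicate 2 and 0.71 without 7KC-IMQ replicate 1. An overlapping gene on the same strand shares 12% of the 75-base windows of Clcf1, so its reads are in part uncertain.

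The FPKM of the 5 ligands summed to 10.1 and 10.0 in Cont-IMQ and to 17.1 and 28.4 in 7KC-IMQ. Il6 made up 17.6% and 25.4% of this sum in Cont-IMQ and 31.5% and 43.9% in 7KC-IMQ. In Cont-IMQ the most abundant ligand transcript was Clcf1 in both libraries. In 7KC-IMQ replicate 1 the values of Il6 and Clcf1 were nearly equal (5.40 and 5.47 FPKM), and in replicate 2 that of Il6 was above that of Clcf1 (12.5 and 8.15 FPKM).

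Markers of cells that could make the ligands did not all move with them. The summed FPKM of 6 keratinocyte markers was 21939 and 14631 in Cont-IMQ and 17115 and 19025 in 7KC-IMQ, and that of 6 fibroblast markers was 3406 and 2446 against 3178 and 2788. The sum of 6 macrophage markers was 346 and 442 in Cont-IMQ and 330 and 357 in 7KC-IMQ, and that of 5 neutrophil markers was 34.8 and 46.8 against 43.8 and 44.9. The groups overlapped in each of these 4 sums. A sum follows its most abundant genes, so its overlap says little of the other markers. Krt1, Krt5, Krt10 and Krt14 made up nearly all of the keratinocyte sum, and C1qa most of the macrophage sum. Without overlap, 2 keratinocyte markers were higher and none lower, 1 fibroblast marker was higher and 1 lower, and 2 macrophage markers were lower and none higher. Of the neutrophil markers, 3 were higher and 2 lower. Among all genes tested, 23.9% were higher and 22.9% lower without overlap. No marker was at 0 in all libraries, and the part of these cells in the ligand values was not tested.

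Among the receptors, Osmr had the clearest difference. It encodes the chain that pairs with gp130 to bind oncostatin M, and with IL31RA to bind IL-31 (chr15:6813577-6874969, minus strand). Its FPKM was 15.6 and 15.8 in Cont-IMQ and 23.1 and 24.3 in 7KC-IMQ. The libraries of each group lay close together, and the means were 15.7 ± 0.173 and 23.7 ± 0.846 FPKM (SD, n = 2 each), a ratio of 1.5. The difference was 0.56 ± 0.08 (SE) on the log2(FPKM + 1) scale, with a limma p of 0.00109 and an adjusted p of 0.331. Leaving out any 1 library gave 0.52 to 0.59, the narrowest such range among the ligands and receptors that did not overlap.

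Il6ra encodes the chain that binds IL-6 and is also released in soluble form (chr3:89864059-89913196, minus strand). Its FPKM was 24.8 and 22.2 in Cont-IMQ and 18.8 and 17.7 in 7KC-IMQ. Both 7KC-IMQ libraries were below both Cont-IMQ libraries, with a ratio of means of 0.777. The difference was -0.35 ± 0.09 (SE) on the log2(FPKM + 1) scale, with a limma p of 0.0156 and an adjusted p of 0.356. A gene on the opposite strand, Gm42809, overlaps Il6ra, and whether reads were assigned by strand is not stated.

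Lifr encodes the signaling chain for leukemia inhibitory factor (chr15:7090614-7197489, plus strand). It lies 215644 bases from Osmr, and the pair are transcribed away from each other. Its FPKM was 6.30 and 7.57 in Cont-IMQ and 5.89 and 5.29 in 7KC-IMQ. The 7KC-IMQ values lay below, but the gap between Cont-IMQ replicate 1 and 7KC-IMQ replicate 1 was smaller than that within either group. The difference was -0.27 ± 0.13 (SE) on the log2(FPKM + 1) scale, with a limma p of 0.0960 and an adjusted p of 0.461, and it was -0.15 without Cont-IMQ replicate 2.

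Il6st encodes gp130, the chain shared by most of the family (chr13:112464070-112510086, plus strand). Its FPKM was 53.6 and 48.3 in Cont-IMQ and 55.9 and 50.2 in 7KC-IMQ, and the groups overlapped. The difference was 0.06 on the log2(FPKM + 1) scale, with a 95% interval of -0.20 to 0.31 and an adjusted p of 0.827 from limma. Its sign turned, to -0.02, when Cont-IMQ replicate 2 or 7KC-IMQ replicate 1 was left out.

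Within a library, the ratio of 2 transcripts does not depend on the scaling between libraries. Osmr FPKM divided by Il6ra FPKM was 0.630 and 0.715 in Cont-IMQ and 1.23 and 1.37 in 7KC-IMQ, so that Osmr was the lower of the pair in one group and the higher in the other. Divided by Lifr, Osmr gave 2.48 and 2.09 in Cont-IMQ and 3.91 and 4.59 in 7KC-IMQ. Divided by Il6st, it gave 0.291 and 0.328 against 0.412 and 0.483. Since Osmr was higher and Il6ra and Lifr lower without overlap, the ratios to Il6ra and Lifr could not overlap between the groups. The ratio of Il6ra to Il6st was 0.462 and 0.459 in Cont-IMQ and 0.336 and 0.352 in 7KC-IMQ. The FPKM of the 4 receptors summed to 100 and 93.9 in Cont-IMQ and to 104 and 97.4 in 7KC-IMQ, with overlap between the groups.

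**Figure D3:**
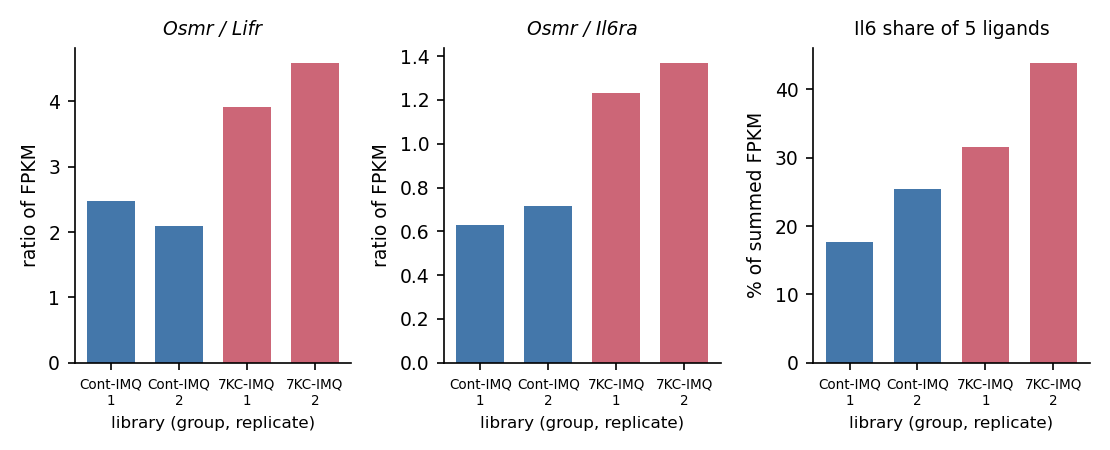
Ratios of FPKM of Osmr to Lifr and to Il6ra, and the share of Il6 in the summed FPKM of the 5 ligands, with a bar for each library. Osmr over Il6ra lies at 0.630 and 0.715 in Cont-IMQ and at 1.23 and 1.37 in 7KC-IMQ, and the share of Il6 lies at 17.6% and 25.4% against 31.5% and 43.9%.

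Some markers of other cells were also lower in 7KC-IMQ, as Il6ra and Lifr were, while 22.9% of all genes were lower and 23.9% higher without overlap. Of 6 endothelial markers, 5 were lower in 7KC-IMQ without overlap, and their sum was 53.1 and 58.6 FPKM in Cont-IMQ and 44.3 and 42.4 in 7KC-IMQ. Of 6 mast cell markers, 3 were lower without overlap, and their sum was 106 and 103 against 86.7 and 91.0. Of 6 T cell markers, 3 were lower and 1 higher without overlap, with sums of 22.6 and 19.2 against 18.5 and 14.7. The sum of 6 skeletal muscle markers was 6735 and 6642 in Cont-IMQ and 5689 and 6624 in 7KC-IMQ, with 2 higher and 2 lower without overlap. That of 6 adipocyte markers was 984 and 1423 against 1408 and 963, with 3 higher. None of these markers was at 0 in all libraries, and their part in the receptor values was not tested.

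Ordered by mean FPKM over the 4 libraries, Il6st was highest at 52.0, above 88.5% of the genes tested. It stood apart from Il6ra (20.8) and Osmr (19.7), whose ranges overlapped. A lower group held Lifr (6.26), Clcf1 (5.70), Il6 (5.55) and Lif (4.04), in which each overlapped with the next. Osm (0.690) and Il11 (0.419) were lowest, apart from Lif and overlapping with each other, and 10.1% of genes lay at or under the level of Il11. This order pools the groups. In the 7KC-IMQ means, Il6 (8.93) and Clcf1 (6.81) were above Lifr (5.59), and over the 4 libraries the ranges of Il6, Clcf1 and Lif each overlapped that of Lifr.

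Of the other 7 ligands and ligand subunits of the family, 5 were tested. By limma none passed the adjusted threshold, 1 was lower and none higher at an unadjusted p under 0.05, 2 were lower and none higher without overlap, and the median difference was -0.14. Among all genes tested, 5.47% were lower and 7.5% higher at this p, and 22.9% and 23.9% without overlap. Ctf1, cardiotrophin 1, had 3.85 and 4.5 FPKM in Cont-IMQ and 3.85 and 3.48 in 7KC-IMQ. Cntf, ciliary neurotrophic factor, overlapped between the groups at 2.15 to 2.71 FPKM, and 77.5% of its 75-base windows are shared with the overlapping gene Zfp91. Ebi3, a subunit of IL-27, had 9.32 and 11.7 FPKM in Cont-IMQ and 9.85 and 8.98 in 7KC-IMQ. Il27, the other subunit, was listed at 0 in Cont-IMQ replicate 1 and at 0.493 to 0.668 FPKM in the other libraries. Ctf2 was listed at 0 in every library, and Il31, the itch cytokine of T cells, was listed at 0 in 3 libraries and at 0.110 FPKM in 7KC-IMQ replicate 2, so neither was tested.

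Of the other 5 receptors, 4 were tested, and by limma none passed the adjusted threshold or had an unadjusted p under 0.05. Of these 4, 2 were higher and 1 lower without overlap, against 23.9% and 22.9% of all genes, and the median difference was 0.27. Cntfr, the receptor chain used by Clcf1, had 9.38 and 19.1 FPKM in Cont-IMQ and 19.5 and 22.9 in 7KC-IMQ. The Cont-IMQ libraries differed from each other by more than the groups were apart, and the difference of 0.62 (log2) was 0.14 without Cont-IMQ replicate 1 and 1.09 without Cont-IMQ replicate 2. Il11ra1, the receptor chain for IL-11, had 28.1 and 32.1 FPKM in Cont-IMQ and 45.3 and 34.8 in 7KC-IMQ, with 30.5% of its 75-base windows shared with near copies. Il31ra, which pairs with Osmr for IL-31 and lies 9811 bases from Il6st, had 4.62 and 4.21 FPKM in Cont-IMQ and 3.64 and 2.79 in 7KC-IMQ. Its difference was -0.37 ± 0.14 (SE) on the log2(FPKM + 1) scale, with an adjusted p of 0.390 by limma, opposite in sign to that of Osmr, and it was -0.22 without 7KC-IMQ replicate 2. Il27ra overlapped between the groups at 0.294 to 0.805 FPKM, and Il11ra2 was listed at 0 in every library.

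Kinases, STATs and adaptors that carry the signal from gp130 mostly differed little. Of 11 genes, none passed the adjusted threshold of limma, 1 was higher and none lower at an unadjusted p under 0.05, 4 were higher and 2 lower without overlap, and the median difference was 0.07. For all genes the shares higher and lower were 7.5% and 5.47% at this p, and 23.9% and 22.9% without overlap. Stat3, the main transcription factor of the pathway and also a target of it, had 81.9 and 68.5 FPKM in Cont-IMQ and 98.1 and 103 in 7KC-IMQ. Both 7KC-IMQ libraries were above both Cont-IMQ libraries, and the difference was 0.42 ± 0.11 (SE) on the log2(FPKM + 1) scale, with a limma p of 0.0139 and an adjusted p of 0.356. Without Cont-IMQ replicate 1 the difference was 0.55, and without Cont-IMQ replicate 2 it was 0.29. Stat3 was the gene of this list with an unadjusted p under 0.05, and it is among the genes the study displayed from these libraries. The kinase Jak2 had 14.4 and 14.1 FPKM in Cont-IMQ and 17.3 and 15.7 in 7KC-IMQ. Stat5b, the lowest difference of the list at -0.18, had 13.3 and 14.4 FPKM against 12.0 and 12.2.

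Feedback inhibitors and the proteases that shed receptors showed no common direction. Of 5 genes, none passed the adjusted threshold of limma, 1 was higher and 1 lower both at an unadjusted p under 0.05 and without overlap, and the median difference was 0.03. Over all genes the shares higher and lower were 7.5% and 5.47% at this p and 23.9% and 22.9% without overlap. Socs1, an inhibitor of Janus kinases, had 9.71 and 5.94 FPKM in Cont-IMQ and 13.8 and 14 in 7KC-IMQ, a difference of 0.79 ± 0.22 (SE) on the log2(FPKM + 1) scale with an adjusted p of 0.356 by limma. Without Cont-IMQ replicate 2 it was 0.48. Socs3, the inhibitor that binds gp130 itself, had 53.8 and 74.7 FPKM in Cont-IMQ and 58.8 and 71.5 in 7KC-IMQ. Its groups overlapped and its sign turned with the library left out, with differences between -0.20 and 0.26. Pias3, an inhibitor of STAT3, had 10.4 and 8.47 FPKM in Cont-IMQ and 7.50 and 6.19 in 7KC-IMQ, a difference of -0.41 ± 0.15 (SE) with an adjusted p of 0.374 by limma. This difference was -0.28 without Cont-IMQ replicate 1 and -0.54 without Cont-IMQ replicate 2. The sheddases Adam10 and Adam17 overlapped between the groups, at 26.6 to 30.2 and 28.9 to 31.2 FPKM.

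Genes known to respond to STAT3 leaned towards higher values. Of the 16 listed, 15 were tested and none passed the adjusted threshold. Of these 15, 6 were higher and 1 lower at an unadjusted p under 0.05, 9 were higher and 1 lower without overlap, and the median difference was 0.53. Over all genes the shares were 7.5% higher and 5.47% lower at an unadjusted p under 0.05, and 23.9% and 22.9% without overlap. Many of these genes also respond to other signals in inflamed skin. Lcn2 is among the genes the study displayed from these libraries, so its part in the count is not independent evidence of a direction. The list as a whole was chosen with earlier results of these data known, so its lean is not independent evidence either.

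Lcn2, which encodes the iron-sequestering protein lipocalin 2, had 125 and 110 FPKM in Cont-IMQ and 273 and 372 in 7KC-IMQ. The difference was 1.43 ± 0.17 (SE) on the log2(FPKM + 1) scale, with a limma p of 0.000612 and an adjusted p of 0.331. Timp1, an inhibitor of matrix metalloproteinases that responds to oncostatin M in many cells, had 19 and 14.2 FPKM in Cont-IMQ and 40.4 and 40.8 in 7KC-IMQ. In both genes each 7KC-IMQ library was above each Cont-IMQ library by more than the spread within a group. The difference of Timp1 was 1.25 ± 0.15 (SE), with a limma p of 0.000579 and an adjusted p of 0.331.

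The NF-kB cofactor Bcl3 had 33.3 and 41.4 FPKM in Cont-IMQ and 59.9 and 67.6 in 7KC-IMQ. Il4ra, a receptor chain for IL-4 and IL-13, had 20.6 and 22.3 against 31.3 and 35.5. Lrg1, a secreted glycoprotein of the acute phase, had 30.5 and 33.7 against 55.7 and 46.7. These 3 genes also did not overlap between the groups, with differences of 0.76, 0.61 and 0.65 and an adjusted p of 0.352 each by limma. The hemoglobin-binding protein gene Hp had 186 and 315 FPKM in Cont-IMQ and 501 and 444 in 7KC-IMQ. Its difference of 0.96 (log2) was 0.58 without Cont-IMQ replicate 1 and 1.33 without Cont-IMQ replicate 2.

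Saa1, a serum amyloid of the acute phase, had 18.3 and 12.1 FPKM in Cont-IMQ and 21.1 and 75 in 7KC-IMQ. Its difference of 1.36 (log2) rested on 7KC-IMQ replicate 2 and was 0.47 without it. Cebpb and Cebpd, transcription factors of the acute phase, had differences of 0.53 and 0.48 without overlap between the groups. Both were 0.23 with a library left out, Cebpb without 7KC-IMQ replicate 2 and Cebpd without Cont-IMQ replicate 1. Lbp, which binds bacterial lipopolysaccharide, had 50.4 and 45.7 FPKM in Cont-IMQ and 35.5 and 40.9 in 7KC-IMQ and was the gene of the list that was lower without overlap. The groups overlapped for Saa3 (294 and 661 against 435 and 547 FPKM), Junb, Pim1, Mcl1 and Myc. Reg3g was listed at 0 in every library.

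**Figure D4:**
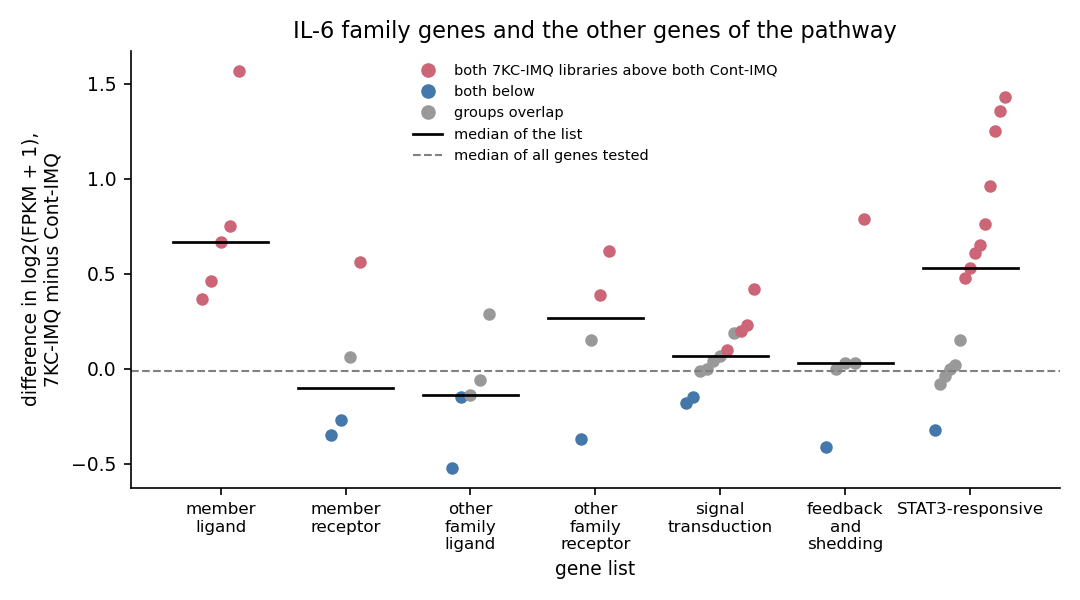
Difference between 7KC-IMQ and Cont-IMQ on the log2(FPKM + 1) scale for the family genes and the other genes of the pathway that were tested, with a point for each gene, coloured by whether the groups overlap, a line for the median of each list and a dashed line for the median of all genes tested. STAT3-responsive genes have a median of 0.53, with Lcn2 at 1.43, against medians of -0.14 for other ligands, 0.27 for other receptors, 0.07 for signal transduction and 0.03 for feedback and shedding.

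Over all 44 of these other genes, 40 were tested and none passed the adjusted threshold. At an unadjusted p under 0.05, 8 were higher and 3 lower, and without overlap 16 were higher and 7 lower, with 17 overlapping. The shares of all genes were 7.5% and 5.47% at this p and 23.9% and 22.9% without overlap. Their median difference was 0.09.

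Genes with a pattern most like that of a ligand were sought among 13109 genes that averaged 1 FPKM or more. Likeness was the root mean square distance between log2(FPKM + 1) values over the 4 libraries, each centred on its own mean. For Il6 the nearest genes were Krt6b, at a distance of 0.086, U90926, at 0.148, and Krt6a, at 0.191. The keratin Krt6b of wounded epidermis had 240 and 347 FPKM in Cont-IMQ and 539 and 1251 in 7KC-IMQ, with the highest value in 7KC-IMQ replicate 2 as for Il6. Its near copy Krt6a had 385 and 542 against 741 and 1488, and reads may be split between them. For Lif they were Zc3h12a, which encodes an RNase that degrades cytokine transcripts, at 0.053, the lactate transporter gene Slc16a3 at 0.054 and Atp12a at 0.055. Those nearest to Clcf1 were Slc6a14, an amino acid transporter gene, at 0.024, Klk14 at 0.032 and Cyp2j12 at 0.040. With 4 libraries many genes can lie this close, and these distances are a description. Il11 and Osm had a mean FPKM under 1 and were not compared in this way.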

How the data were processed

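RNA of IMQ-treated dorsal skin was sequenced in 4 libraries, and groups and replicate numbers were taken from the sample labels. The authors mapped 75-base reads to mm10 and deposited FPKM per gene symbol. The submitters' processing notes list TopHat2 2.1.1, Bowtie2 2.2.8, SAMtools 0.1.18 and Cuffdiff 2.2.1, while the published methods list other versions. The library kit was stranded, the annotation is not given in the sources used here, and no read counts were used.

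The deposited FPKM were transformed to log2(FPKM + 1), genes averaging 0.1 FPKM or more were kept, and groups were compared by lmFit and eBayes with a variance trend (limma 3.58.1, R 4.3.3) and Benjamini-Hochberg adjustment. The script was tested on simulated data. Reads were estimated from steps in low values of single-transcript genes, of which 70.8% to 74.9% lay within 0.1 of a whole read. By chance 20% would do so at a depth fixed beforehand. Each depth was chosen to make this share largest, so the share is no separate check on the depth. The estimated reads cover counting error only. An FPKM worth 3 reads was treated as the floor. Between 7185 and 7388 symbols were listed at 0, which can be a failed estimate. Positions and shared 75-base windows came from GENCODE M21 and promoters from RefSeq.

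Members, lists and tests were chosen with earlier results of these data known. All members are named, of the other pathway lists any gene may be named and at least the largest and smallest difference among genes averaging 1 FPKM or more, and of like genes the 3 nearest to each ligand. Markers were 6 genes for each of 10 cell types or structures. Ly6g was not analysed here, and some genes that the rule names are not reported here. Alternatives were a pseudocount of 0.1, other filters, 2 scalings, no variance trend, a replicate block and leaving out each library.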

Additional observations from a re-analysis of the deposited data

How the results depend on the processing

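The family genes were recomputed under 11 alternatives, in which none passed the adjusted threshold. The lowest adjusted p of any of them was 0.264, for Osmr with a mean FPKM of at least 1. The number of all genes past the threshold was 1 and became 2 with a pseudocount of 0.1, and 1 to 9 when a library was left out (9 without Cont-IMQ replicate 1 and 5 without Cont-IMQ replicate 2). With a mean FPKM of at least 1, 3 family genes were higher at an unadjusted p under 0.05 in place of 5, as Il11 and Osm were then not tested. With a pseudocount of 0.1 that number was 4, as Il11 then had a limma p of 0.0608. Leaving out a library gave 3 to 5 higher and 0 to 1 lower. Without a filter, 1 other pathway gene was lower at an unadjusted p under 0.05 in place of 3, and leaving out a library gave 0 to 2. Without overlap, 16 were higher and 7 lower, and leaving out a library gave 18 to 25 higher and 9 to 13 lower, where fewer libraries overlap less. Of 350 values of single genes, 7 turned in sign. Socs3 was -0.04 after quantile normalization, -0.20 without Cont-IMQ replicate 1 and -0.11 without 7KC-IMQ replicate 2, Il6st was -0.02 without Cont-IMQ replicate 2 and without 7KC-IMQ replicate 1, Cntf was 0.06 without 7KC-IMQ replicate 1 and Ebi3 was 0.01 without Cont-IMQ replicate 2. The ranges with a library left out were -0.20 to 0.26 for Socs3, -0.02 to 0.14 for Il6st, -0.18 to 0.06 for Cntf and -0.29 to 0.01 for Ebi3. The cause was not tested. With the replicate block, no family gene passed the threshold, 5 were higher and 1 lower at an unadjusted p under 0.05, and 1 of all genes passed it. The numbers pair nothing known, and deviations of same-numbered libraries correlated at 0.0776 over 13110 genes. Depth limits Il11 and Osm, at 3 to 40 estimated reads.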
